A study of Mus musculus with 2 samples.

Results

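Hemidesmosomes are the junctions that hold basal epithelial cells to the basement membrane, and laminin-332 is the basement membrane protein they grip. The integrin pair α6β4 binds laminin-332 from the cell side, type XVII collagen spans the membrane beside it, and the plakin proteins plectin and dystonin tie both to the keratin filaments. In the cornea this anchor is kept by the basal cells and lost by the cells that move up toward the surface. Levels of 9 genes of this set were followed here: Col17a1 (type XVII collagen), Itga6 and Itgb4 (the α6 and β4 integrin chains), Itgb1 (the β1 integrin chain, which pairs with other α chains in focal adhesions), Cd151 (a tetraspanin that associates with laminin-binding integrins), Plec (plectin), Dst (dystonin) and Lama3 and Lamb3 (the α3 and β3 chains of laminin-332). They were chosen by name, out of 31053 genes measured, with earlier results of these data known. All 9 passed the filter on low counts in every comparison.

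The cells were corneal epithelium of CycB1-GFP mice, in which green fluorescent protein follows Cyclin B1 and so marks cycling cells. Trypsin made single cells of the epithelium, which Dispase had loosened, and the GFP-positive ones were sorted and sequenced with droplet chemistry that reads the 3′ end of each RNA. All samples belong to 1 group of 2 labelled replicates with this genotype, with no untreated or wild-type control, and age, strain, sex and the number of animals are not given in the labels. Only GFP-positive cells were sequenced, so the values describe these sorted cells and not the whole tissue. The matrix held 2 libraries, called library 1 and library 2 because their link to the labelled replicates is not given. Library 1 had 3458 barcodes and library 2 had 3294. After leaving out barcodes with under 500 detected genes or with 20% or more mitochondrial UMIs, 3187 and 3001 cells remained, with medians of 5571 and 5886 UMIs (unique molecular identifiers, each counting 1 captured RNA molecule). Of the barcode sequences, 5 occurred in both libraries. Nothing in the labels says whether the libraries came from separate animals. The p-values therefore rest on these 2 libraries only and cannot be taken to measure spread between animals.

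Cells were placed by the keratins they carried. Krt12 is the keratin of differentiated corneal epithelium and Krt15 is a keratin of basal limbal and conjunctival cells. Among cells with at least 5 UMIs of both together, a Krt12/(Krt12+Krt15) share above 0.8 was found in 2304 cells of library 1 and 1821 cells of library 2 (called Krt12-dominant), a share of 0.4 to 0.8 in 161 and 164 (intermediate), and a share under 0.4 in 663 and 959 (Krt15-dominant). A further 59 and 57 cells had too few keratin UMIs and were not placed. The Krt15-dominant cells were divided further. Of these, 277 and 425 had at least 2 UMIs of Gpha2, a limbal marker, and under 2 of Krt4 and Krt13. Another 117 and 162 had at least 2 UMIs of Krt4 and Krt13, keratins of the conjunctiva, and under 2 of Gpha2. The remaining 269 and 372 cells met neither rule. Defining markers of cells that would not be epithelial were almost absent: in these 5 classes, the 5 keratocyte markers together reached at most 1.43 CPM and the 7 immune markers at most 3.54 CPM, where CPM stands for a gene's UMIs scaled to 1000000 UMIs of the cells summed. The classes take only cells with at least 5 UMIs of Krt12 and Krt15 together. Low values here thus follow in part from the class rule, which left out cells without these keratins. The corneal marker list summed to 29669 and 39749 CPM in Krt12-dominant cells and to 2753 and 2179 in Gpha2 cells, with Ptgds at 0 in all classes. This list holds Krt12, which also set the classes, so part of that gap follows from the class rule. Levels below are such CPM over the cells of a class, always given for library 1 and then library 2. Because every read comes from the 3′ end, isoforms of Dst, Plec and Lama3 are counted together. Differences are log2 fold changes from edgeR's quasi-likelihood test on UMIs summed per library and class, with the library as a block and p-values adjusted by Benjamini-Hochberg over all genes tested. A difference was called at an adjusted p under 0.05. The test estimates the spread of a gene partly from all genes tested. A small p-value therefore does not show that the gap was alike in both libraries. Where values of classes are said not to overlap, this only describes the 2 values that each class has. The share of all genes without overlap was not counted.

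Promoters are shown for Col17a1 and Lamb3, the members that differed most, and in opposite directions, between Krt15-dominant and Krt12-dominant cells. RefSeq gives promoter windows of 250 bases before to 50 bases after a start for 5 of the 9 members, on GRCm38.p6. The window of Col17a1 lies at chr19:47691993-47692292 on the minus strand, and the upstream one of the 2 windows of Lamb3 lies at chr1:193301744-193302043 on the plus strand. Both are printed 5′ to 3′ along the gene, with capitals marking the E-box letters CANNTG and the TATA letters TATAAA, each searched on both strands, with no overlap between them.
Col17a1: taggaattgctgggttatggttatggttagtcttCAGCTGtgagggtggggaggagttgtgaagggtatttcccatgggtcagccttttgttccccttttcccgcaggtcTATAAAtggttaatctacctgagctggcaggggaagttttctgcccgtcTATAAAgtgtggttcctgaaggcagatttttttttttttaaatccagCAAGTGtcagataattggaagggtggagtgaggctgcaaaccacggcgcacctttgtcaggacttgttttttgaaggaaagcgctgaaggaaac
Lamb3: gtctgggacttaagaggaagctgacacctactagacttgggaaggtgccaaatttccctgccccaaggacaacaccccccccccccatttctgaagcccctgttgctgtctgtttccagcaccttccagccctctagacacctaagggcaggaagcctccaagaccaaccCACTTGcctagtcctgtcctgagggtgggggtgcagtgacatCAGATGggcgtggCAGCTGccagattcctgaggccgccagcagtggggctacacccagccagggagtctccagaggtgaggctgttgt
The Col17a1 window holds 2 E-box matches and 2 TATA matches, and the Lamb3 window holds 3 E-box matches and 0 TATA matches. Among all 32851 promoter windows of the same length, 72.3% hold an E-box match and 13.6% hold a TATA match. The AP-1 letters TGANTCA, found in 7.81% of all windows, occur in 0 of the windows of the 5 members. A match or its absence describes only the letters in the window.

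Col17a1 separated the classes more widely than any other member. Its level was 936 CPM in Krt12-dominant cells of library 1 and 1010 in library 2, 575 and 790 in intermediate cells, and 393 and 390 in Krt15-dominant cells. The 3 classes did not overlap between libraries. Krt15-dominant cells were lower than Krt12-dominant cells by −1.34 on the log2 scale (SE 0.09, edgeR adjusted p = 2.52e-09). Intermediate cells lay between: they were lower than Krt12-dominant cells (−0.55, SE 0.09, edgeR adjusted p = 0.000967), with −0.74 in library 1 and −0.35 in library 2, and Krt15-dominant cells were lower again than intermediate ones (−0.79, SE 0.09, edgeR adjusted p = 3.11e-05). Col17a1 was the 1 member called in intermediate against Krt12-dominant cells, with 0 members higher, where 7.06% of the 11140 genes tested were called, 4.15% higher and 2.92% lower. Against intermediate cells, Krt15-dominant cells had 3 members lower (Col17a1, Itgb4 and Plec) and 1 higher (Lamb3), where 5.57% of genes were called, 2.62% higher and 2.95% lower. Depth moved with the Col17a1 level too: the cells in the shallowest of 4 bins of total UMIs stood at 1084 and 1074 CPM, against 631 to 860 CPM in the deeper bins of both libraries.

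**Figure D1:**
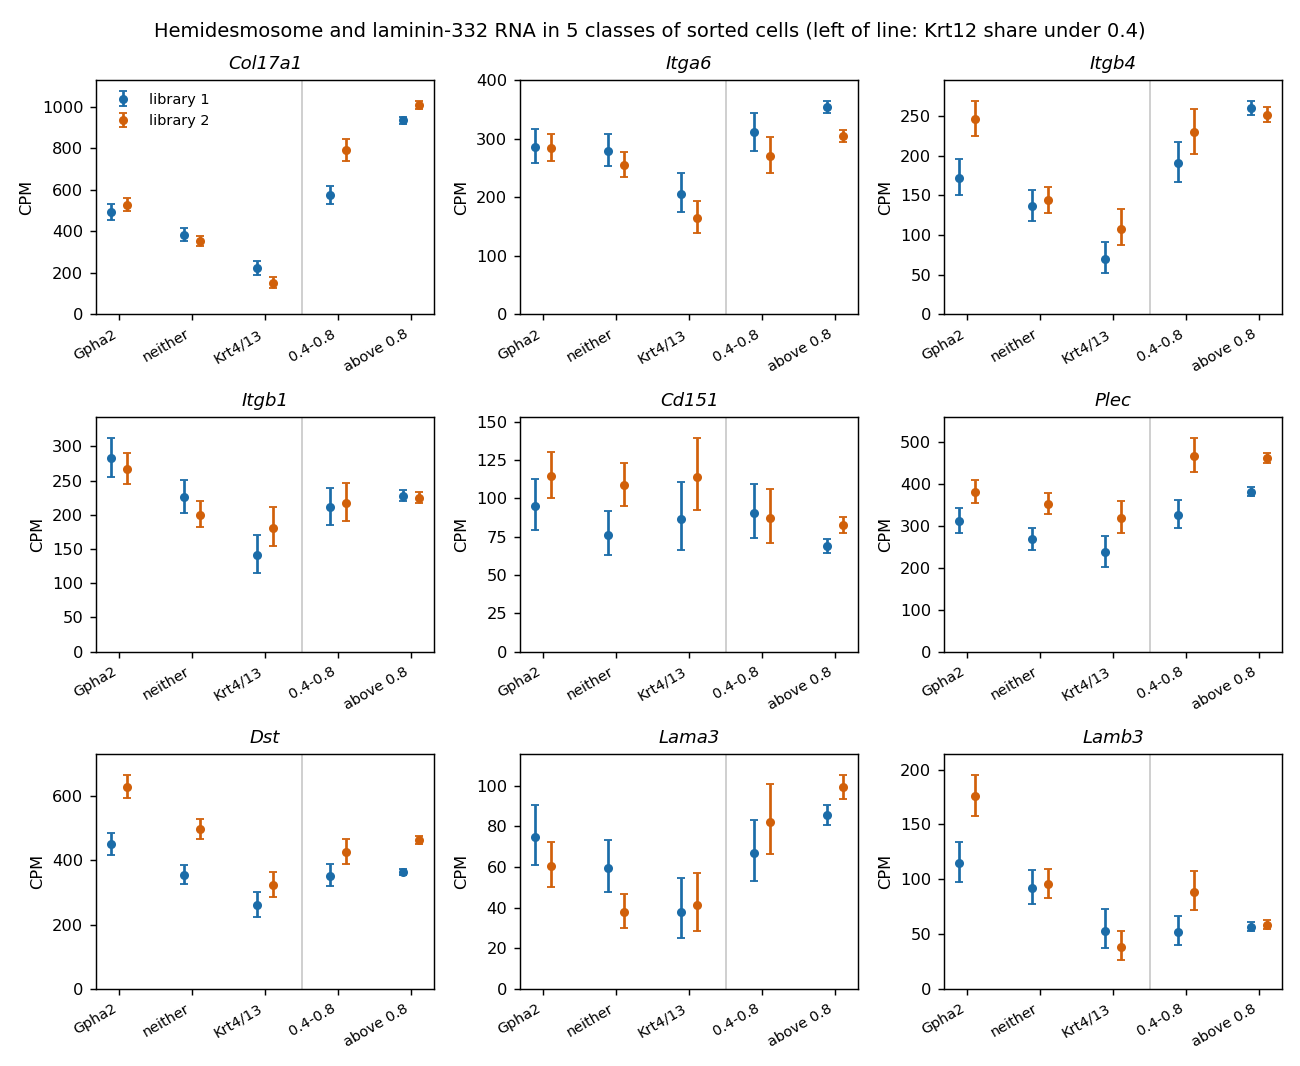
CPM (UMIs scaled to 1000000, vertical axis, from 0) of the 9 genes in 5 classes of sorted cells, for library 1 (blue) and library 2 (orange), with exact 95% Poisson intervals that cover counting error only. Classes left of the grey line have a Krt12 share under 0.4. Col17a1 goes from 221 and 150 in Krt4/Krt13 cells to 936 and 1010 in cells with a share above 0.8, while Lamb3 is highest in Gpha2 cells at 115 and 176.

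Read across all 9 genes, Krt15-dominant cells had 2 members called higher and 5 called lower than Krt12-dominant cells. In this comparison 32.5% of the 11140 genes tested were called, 16.9% higher and 15.6% lower, so calls were common among all genes. The median log2 difference was −0.37 over the members and −0.01 over all genes tested. Besides Col17a1, the integrin chains Itgb4 (−0.73, SE 0.10, edgeR adjusted p = 3.78e-06) and Itga6 (−0.37, SE 0.08, edgeR adjusted p = 0.000909), the linker Plec (−0.43, SE 0.08, edgeR adjusted p = 0.000113) and the laminin chain Lama3 (−0.81, SE 0.12, edgeR adjusted p = 1.68e-05) were lower. Lamb3 (0.84, SE 0.12, edgeR adjusted p = 7.68e-06) and Cd151 (0.36, SE 0.11, edgeR adjusted p = 0.0088) were higher. Dst (0.08, SE 0.08) and Itgb1 (−0.02, SE 0.08) did not pass, with edgeR adjusted p = 0.489 and 0.885. The Lamb3 difference depended on the kind of Krt15-dominant cell taken: it stood at −0.38 (edgeR adjusted p = 0.318) when the only Krt15-dominant cells were those with Krt4 and Krt13, and at 1.30 (edgeR adjusted p = 2.91e-05) when they were those with Gpha2. DESeq2 called neither Cd151 nor Itga6, and without the library as a block 1 member was called higher and 3 lower.

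The integrin chains are given 1 by 1, and differences between chains were not tested. Itgb4, on chromosome 11 (115974709 to 116008412, plus strand, GRCm38), stood at 260 and 252 CPM in Krt12-dominant cells, 190 and 229 in intermediate cells, and 137 and 179 in Krt15-dominant cells. Every Krt15-dominant value was below every Krt12-dominant one, and the gap was −0.97 in library 1 against −0.50 in library 2. Itga6, its partner chain (chromosome 2, 71745616 to 71858416, plus strand), stood at 354 and 304 in Krt12-dominant cells, 311 and 270 in intermediate cells and 267 and 251 in Krt15-dominant cells. Krt12-dominant and Krt15-dominant values of Itga6 did not overlap, and the intermediate ones overlapped with the former. Itgb1 (chromosome 8, 128685654 to 128733200, plus strand) was nearly level across the 3 classes, at 228 and 225, 211 and 217, and 231 and 224.

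The plakin linkers and the tetraspanin gave another arrangement. Plec (chromosome 15, 76170974 to 76232574, minus strand) measured 381 and 462 CPM in Krt12-dominant cells, 327 and 468 in intermediate cells and 279 and 359 in Krt15-dominant cells. Library 2 was higher than library 1 in every class for Plec, and in each library the Krt15-dominant cells were the lowest. Dst (chromosome 1, 33908225 to 34308661, plus strand) measured 364 and 463, 352 and 426, and 373 and 521 in the same order, and library 2 was above library 1 in every class. Cd151 (chromosome 7, 141467392 to 141471473, plus strand) measured 68.7 and 82.4, 90.6 and 86.8, and 85.4 and 112. Its Krt15-dominant values were above both Krt12-dominant values.

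The 2 laminin chains went opposite ways. Lama3 (chromosome 18, 12333819 to 12583013, plus strand) measured 85.6 and 99.2 CPM in Krt12-dominant cells, 66.9 and 82.4 in intermediate cells and 61.0 and 47.5 in Krt15-dominant cells. Lamb3 (chromosome 1, 193207699 to 193343878, plus strand) measured 56.6 and 58.5, 51.6 and 88.6, and 92.8 and 118. Neither chain had overlapping values between Krt12-dominant and Krt15-dominant cells. The Lama3 difference was −0.53 in library 1 and −1.07 in library 2, and that of Lamb3 was 0.67 and 1.00.

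In 10 equal bins of the Krt12 share, Col17a1 was higher at the top of the range than at the bottom and Lamb3 was lower. In the lowest bin Col17a1 stood at 353 and 373 CPM, and in the highest at 952 and 1023. Lamb3 stood at 85.5 and 120 CPM in the lowest bin and 56.1 and 58.3 in the highest. Bins in the middle held few cells, so their intervals are wide.

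**Figure D2:**
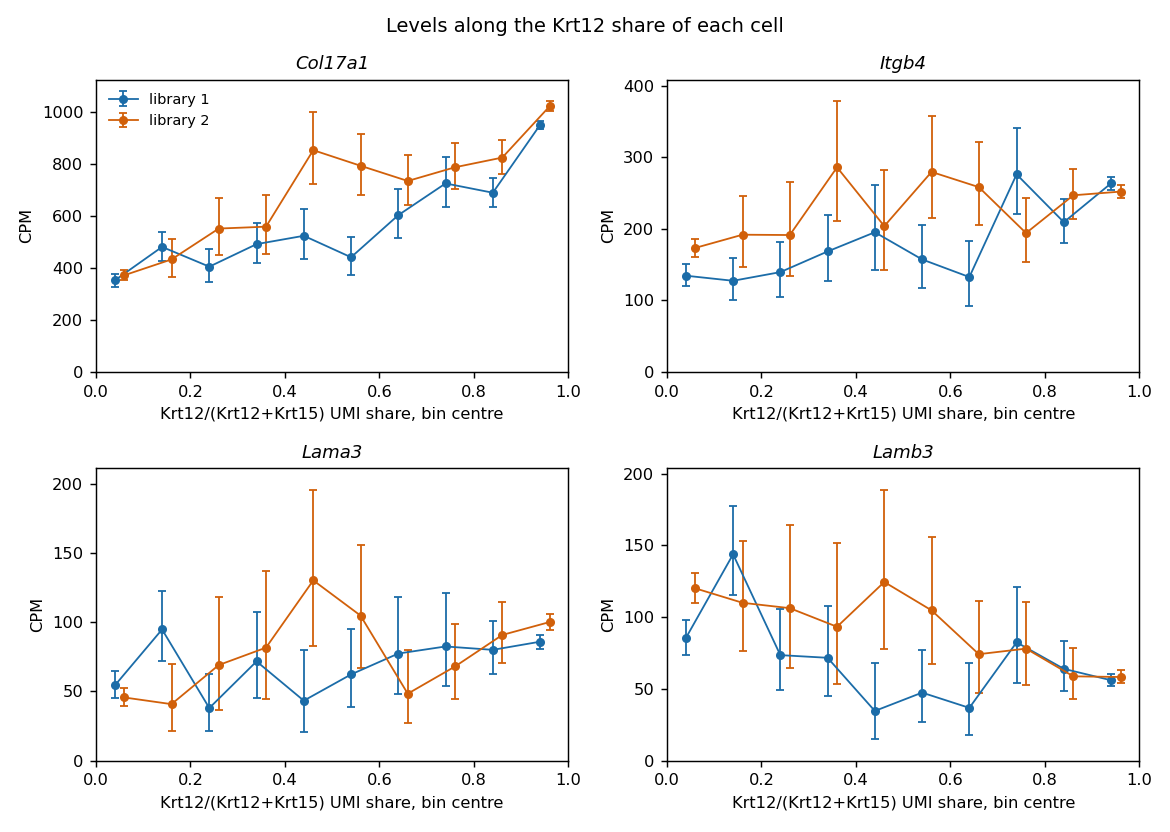
CPM (vertical axes, from 0) of Col17a1, Itgb4, Lama3 and Lamb3 in 10 bins of the Krt12/(Krt12+Krt15) UMI share (horizontal axis), for library 1 (blue) and library 2 (orange), with exact 95% Poisson intervals covering counting error. Col17a1 goes from 353 and 373 in the lowest bin to 952 and 1023 in the highest.

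The share of cells with a Col17a1 UMI followed the same order. Thinned to 2000 UMIs each, 79.8% and 81.6% of Krt12-dominant cells had a Col17a1 UMI, against 62.7% and 74.3% of intermediate cells and 45.3% and 49.4% of Krt15-dominant cells. In Gpha2 cells the share was 53.7% and 62.9%, and in Krt4/Krt13 cells 27.2% and 24.5%. Without thinning the Krt15-dominant shares were 71.0% and 71.8%, and the Krt12-dominant shares 96.1% and 95.0%. As a measure of free RNA, 1 of 19 immune-like cells (5.26%, median 1932 UMIs, not thinned) had a Col17a1 UMI. Gpha2 cells carried a mean of 3.03 and 3.62 of the 9 members each after thinning, Krt4/Krt13 cells 2.07 and 2.27, and Krt12-dominant cells 3.31 and 3.52.

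Within the Krt15-dominant cells, those with Krt4 and Krt13 had less RNA of 8 of the 9 members than those with Gpha2. In this comparison 19.2% of the 9379 genes tested were called, 10.4% higher and 8.84% lower. The median log2 difference was −0.72 over the members and −0.03 over all genes tested. Lamb3 stood at 115 and 176 CPM in Gpha2 cells and 52.9 and 37.6 in Krt4/Krt13 cells (−1.68, SE 0.20, edgeR adjusted p = 3.54e-07), with −1.07 in library 1 and −2.18 in library 2. Col17a1 went from 493 and 529 to 221 and 150 (−1.44, SE 0.11, edgeR adjusted p = 7.84e-11), and Itgb4 from 172 and 246 to 69.6 and 108 (−1.19, SE 0.14, edgeR adjusted p = 1.96e-07). In none of these 3 did the 2 values of each class overlap, with no all-gene share to set beside this. Dst (−0.85), Lama3 (−0.72), Itgb1 (−0.71), Itga6 (−0.59) and Plec (−0.28) were lower too, with edgeR adjusted p from 1.09e-08 (Dst) to 0.0279 (Plec). Cd151 was the exception, at 94.7 and 114 in Gpha2 cells and 86.3 and 114 in Krt4/Krt13 cells (−0.01, SE 0.14, edgeR adjusted p = 0.985). The Krt4/Krt13 cells also carried more RNA of the wound and stress list (5053 and 4445 CPM, against 769 and 462 in Gpha2 cells) and of the superficial list (555 and 675 against 141 and 196). The part of these lists in the member differences was not tested. Without the library block, 5 members were called lower, with no all-gene count given for that setting.

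Other adhesion genes were read in the same comparison by list. Desmosomes join neighbouring cells instead of cell and matrix, and 8 of 10 desmosome genes were higher in Krt4/Krt13 cells and 0 lower, led by Dsc2 (2.02), Pkp1 (1.33) and Perp (1.20). Of 9 adherens junction genes 7 were higher and 0 lower, led by the cell-cell adhesion protein Nectin4 (2.80), and of 4 other plakins 3 were higher and 0 lower, led by envoplakin Evpl (2.34) and periplakin Ppl (1.81). Of 12 tested genes of the other basement membrane list, 9 were lower and 0 higher, among them agrin Agrn (−2.50) and the anchoring fibril collagen Col7a1 (−2.26). Of 17 tested genes of the other integrin and focal adhesion list 2 were higher, among them the actin crosslinker Actn4 (0.99), 2 were lower and 13 were not called, and of 5 tested tetraspanins 1 was higher (Cd82, 0.80) and 3 lower, led by Tspan3 (−1.16). Actn1 (−0.85) and Itga3 were the lower ones of the integrin and focal adhesion list. Itga3, which pairs with Itgb1 to bind laminin-332, had 63.1 and 43.3 CPM in Gpha2 cells and 5.57 and 4.70 in Krt4/Krt13 cells (−3.30, edgeR adjusted p = 3.54e-08). The lowest of these sums rest on few UMIs: 4 of Itga3 in each library, and 1 and 7 of Col7a1.

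Set beside Krt12-dominant cells, the 2 kinds of Krt15-dominant cells differed from them in unlike ways. In Gpha2 cells, 3 members were called higher and 5 lower, where 29.2% of the 9767 genes tested were called, 15% higher and 14.2% lower. Lamb3 (1.30, SE 0.17), Cd151 (0.43, SE 0.12) and Dst (0.34, SE 0.08) were higher and Col17a1 (−0.96, SE 0.19), Lama3 (−0.50, SE 0.15), Itgb4 (−0.34, SE 0.12), Plec (−0.32, SE 0.09) and Itga6 (−0.23, SE 0.09) lower. Itgb4 in this comparison rested on library 1, at −0.66 against −0.06 in library 2. The Lama3 gap was wider in library 2, at 60.5 CPM in Gpha2 cells and 99.2 in Krt12-dominant cells. In library 1 Lama3 stood at 74.6 and 85.6 in these cells, with overlapping Poisson intervals. In Krt4/Krt13 cells, 1 member was higher and 7 lower, where 27.6% of the genes tested were called, 14.5% higher and 13.1% lower. Cd151 (0.41, SE 0.14) was the higher one, and the largest falls were Col17a1 (−2.40, SE 0.22), Itgb4 (−1.53, SE 0.15) and Lama3 (−1.23, SE 0.21). Dst stood at −0.51 here (SE 0.09, edgeR adjusted p = 5.66e-05), the opposite sign to Gpha2 cells. The remaining Krt15-dominant cells met neither rule but can still hold UMIs of both kinds of marker. In them 1 member was higher (Lamb3, 0.65) and 5 lower, where 28.4% of genes were called, 14.6% higher and 13.8% lower. These comparisons share the Krt12-dominant cells, and immediate early RNA moved with them too, at 6320 and 2804 CPM in Krt12-dominant cells and 3431 and 1481 in Gpha2 cells; its part was not tested.

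**Figure D3:**
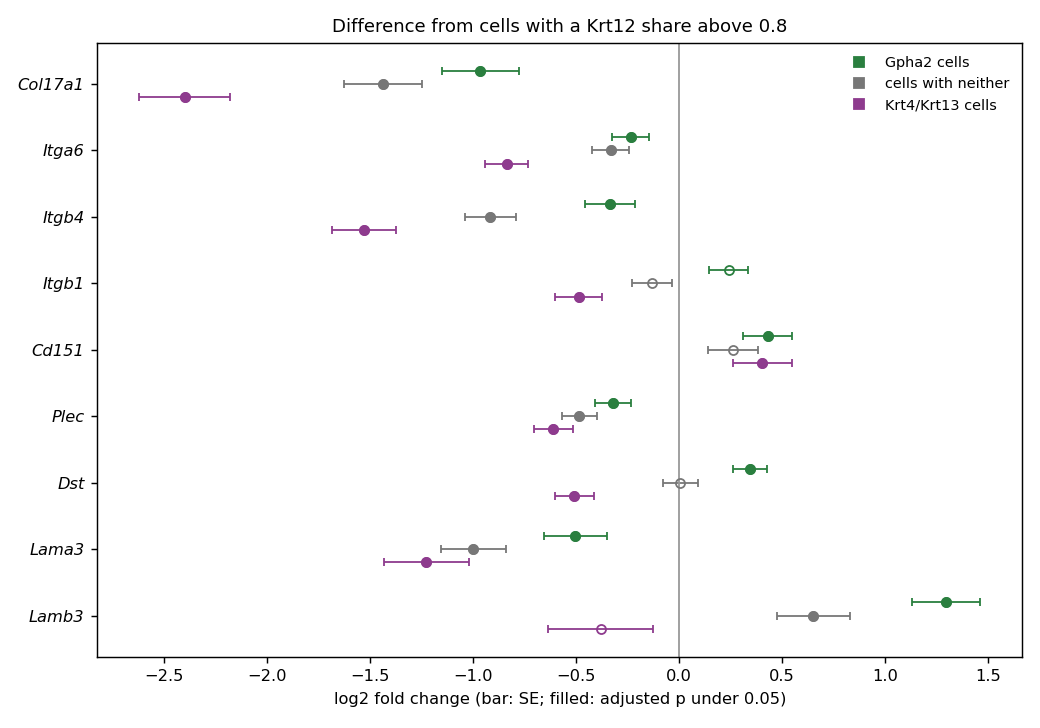
Log2 fold change from cells with a Krt12 share above 0.8 (horizontal axis, 0 marked), for the 9 genes (rows). Colours are Gpha2 cells (green), Krt15-dominant cells that met neither rule (grey) and Krt4/Krt13 cells (purple). Bars are the standard error and filled points have an edgeR adjusted p under 0.05. Lamb3 is at 1.30 in Gpha2 cells and −0.38 in Krt4/Krt13 cells, and Col17a1 is below 0 in each class.

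Cyclin B1 reporting makes division a second axis of these cells. Cells were called mitotic with at least 4 UMIs of Ccnb1, Cdc20 and Plk1 together, 1142 and 1077 cells, and were compared with 941 and 894 cells that had 0. Cd151 went from 58.8 and 77.3 CPM without mitotic RNA to 83.9 and 103 in mitotic cells (0.40, SE 0.09, edgeR adjusted p = 0.00343), and Dst from 349 and 423 to 397 and 547 (0.22, SE 0.07, edgeR adjusted p = 0.0271). For Cd151, but not for Dst, the mitotic values lay above both values without mitotic RNA. Col17a1 went down from 905 and 839 to 749 and 773 (−0.25, SE 0.06, edgeR adjusted p = 0.00485) and Lama3 from 96.3 and 84.0 to 72.3 and 78.9 (−0.31, SE 0.10, edgeR adjusted p = 0.0295). The Lama3 difference was −0.47 in library 1 and −0.14 in library 2, and that of Col17a1 −0.33 and −0.16. So 2 members were called higher and 2 lower, where 17.7% of the 11284 genes tested were called, 8.32% higher and 9.42% lower.

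The mixture of keratin classes moved with division. Krt15-dominant cells made up 23.8% and 40.1% of mitotic cells and 17.5% and 29.6% of cells without mitotic RNA, and the median depth was 6592 and 6679 UMIs in mitotic cells and 4366 and 4359 without. With the keratin class in the fit, Col17a1 (−0.16, edgeR adjusted p = 0.102) and Lama3 (−0.22, edgeR adjusted p = 0.145) were no longer called. Cd151 (0.36, edgeR adjusted p = 0.00592) and Dst (0.29, edgeR adjusted p = 0.00186) were still called, and Itga6 (0.23, edgeR adjusted p = 0.019) was called too. With each cell thinned to 2000 UMIs and the mitotic state kept as set before thinning, neither Cd151 (0.24, edgeR adjusted p = 0.302) nor Dst (0.18, edgeR adjusted p = 0.197) was called. When the state was set again on the thinned counts, which left 261 and 239 mitotic cells against 1350 and 1267, Dst was called (0.33, edgeR adjusted p = 0.0267) and Cd151 was not (0.17, edgeR adjusted p = 0.673). DESeq2 called 0 members in either direction, as did edgeR without the library block. Wound and stress RNA moved with division as well, at 2118 and 925 CPM in mitotic cells and 3382 and 2086 without mitotic RNA, and its part was not tested.

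Whether the mitotic difference was alike in the 2 classes was tested as an interaction, and edgeR called 0 of 9874 genes. At an unadjusted p under 0.05, 1 member was found, and DESeq2 called 0. This member was Itgb4, chosen here after its value was seen, with a mitotic difference larger by 0.56 (SE 0.19, unadjusted p = 0.00534, edgeR adjusted p = 0.808) in Krt15-dominant cells. In those cells Itgb4 stood at 104 and 139 CPM without mitotic RNA and 159 and 208 with it (0.54, SE 0.15, edgeR adjusted p = 0.0174), where 6.78% of genes were called, 3.59% higher and 3.19% lower. It was the 1 member called there. In Krt12-dominant cells Itgb4 stood at 261 and 243 without and 263 and 260 with mitotic RNA (−0.02, SE 0.12, edgeR adjusted p = 0.956), where 9.99% of genes were called, 4.59% higher and 5.4% lower, and 0 members.

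**Figure D4:**
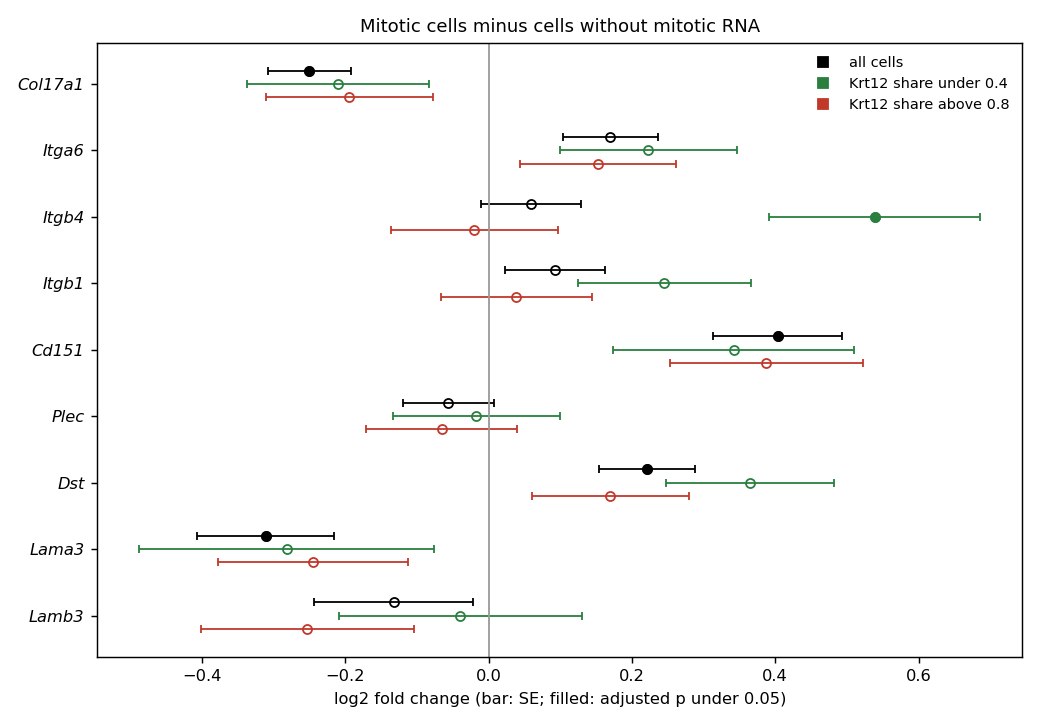
Log2 fold change of mitotic cells against cells without mitotic RNA (horizontal axis, 0 marked) for the 9 genes (rows), over all cells (black), Krt15-dominant cells (green) and Krt12-dominant cells (red). Bars are the standard error and filled points have an edgeR adjusted p under 0.05. Over all cells Cd151 and Dst are right of 0 at 0.40 and 0.22, and Col17a1 and Lama3 left of it at −0.25 and −0.31.

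Among Krt12-dominant cells, members were also read against a list of superficial genes. Cells with at least 3 UMIs of this list, nearly all of them the tight junction gene Cldn7, numbered 646 and 553, and those with 0 numbered 731 and 521. Surface RNA is the name used below for this list, so it stands mainly for Cldn7. The layer in which these cells lay was not measured. The comparison was added after the data were seen. In it 6 members were lower and 0 higher in cells with surface RNA, where 12.7% of the 10595 genes tested were called, 7.87% higher and 4.8% lower. Itgb4 went from 322 and 301 CPM to 209 and 208 (−0.56, SE 0.07, edgeR adjusted p = 2.26e-12), Col17a1 from 1088 and 1175 to 782 and 870 (−0.43, SE 0.08, edgeR adjusted p = 4.3e-07), and Itgb1 from 261 and 265 to 194 and 185 (−0.45, SE 0.07, edgeR adjusted p = 5.69e-08). For all 3 the 2 values of each class did not overlap, with no all-gene share to set beside this. Lama3 (−0.52, SE 0.10), Lamb3 (−0.57, SE 0.12) and Dst (−0.21, SE 0.07) were lower with edgeR adjusted p = 3.32e-06, 3.9e-05 and 0.0307. In library 2 alone they stood at −0.33, −0.29 and −0.09, against −0.71, −0.82 and −0.35 in library 1. Plec (−0.10), Itga6 (−0.05) and Cd151 (0.10) did not pass.

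Both laminin chains fell together in this comparison, which they had not done between Krt15-dominant and Krt12-dominant cells. Col7a1 (−0.88) and Agrn (−0.61) were lower as well, among 4 of 13 tested genes of the other basement membrane list that were lower, with 0 higher. Against this, 8 of 9 tested desmosome genes were higher and 0 lower, led by Dsc2 (1.12), Dsg3 (0.85) and Pkp1 (0.79), and 7 of 9 adherens junction genes were higher, led by Nectin4 (1.87). Median depth differed, at 4471 and 4872 UMIs in cells without surface RNA and 7310 and 7433 in cells with it. Among cells of 3000 to 10000 UMIs, 5 members were called lower, Dst no longer (−0.12, edgeR adjusted p = 0.447). DESeq2 called 2 members, Col17a1 and Itgb4, and edgeR without the library block called 0. All-gene counts under these settings are not given here. Wound and stress RNA moved with surface RNA, from 1431 and 216 CPM to 4100 and 2076, and its part was not tested.

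**Figure D5:**
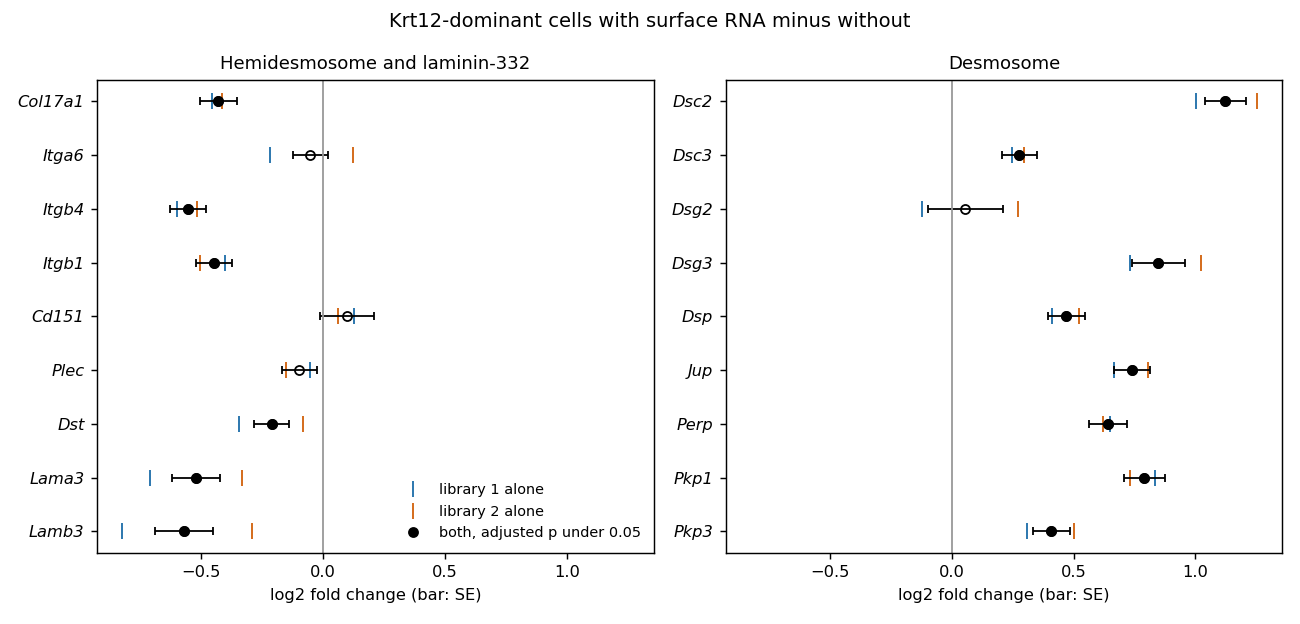
Log2 fold change (horizontal axes, 0 marked) between Krt12-dominant cells with surface RNA and without, for the 9 genes (left) and the 9 tested desmosome genes (right). Surface RNA is nearly all Cldn7. Black points are the fit over both libraries with the standard error, filled where the edgeR adjusted p is under 0.05, and ticks are library 1 (blue) and library 2 (orange) alone. Itgb4 and Col17a1 lie at −0.56 and −0.43, Dsc2 at 1.12.

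Wound keratins divided Krt12-dominant cells without a called difference in the members. In 983 and 435 cells with at least 3 UMIs of Krt6a and Krt16, against 860 and 1081 with 0, edgeR called 0 members where 3.06% of the 10769 genes tested were called, 2.43% higher and 0.622% lower. DESeq2 called 0 as well, and 2 members reached an unadjusted p under 0.05. They were Itga6, at 279 and 285 CPM without and 413 and 342 with the wound keratins (0.47, SE 0.16, edgeR adjusted p = 0.18), and Lamb3, at 44.3 and 53.8 without and 66.5 and 68.2 with (0.52, SE 0.16, edgeR adjusted p = 0.15).

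Across the 12 sums of library, keratin class and division, with each library centred on its own mean, the members split into pairs that tracked each other and pairs that did not. Over these sums, which share libraries and cells, Pearson's r was 0.92 for Col17a1 and Lama3, 0.89 for Itgb4 and Plec, and 0.86 for Itgb1 and Dst. The pairs were not separate couples: r was also 0.87 for Col17a1 and Plec, 0.76 for Plec and Lama3, and 0.725 for Col17a1 and Itgb4. For the partner chains Itga6 and Itgb4 it was 0.77. Lamb3 gave −0.80 with Col17a1 and −0.74 with Plec. The genes whose log2 level was most like the mean of the 9, among 2917 genes, were the adhesion gene Cadm1 (r = 0.94), the actin regulator Coro1c (0.92), the tetraspanin Cd9 (0.92), the kindlin Fermt1 (0.91) and the caveolae gene Cavin3 (0.90).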

How the data were processed

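Single-cell RNA was measured in 2 libraries of GFP-sorted corneal epithelium. The authors deposited whole-number UMI counts per gene and barcode. The submitters' processing notes name Cell Ranger 3.1.0, Seurat 5.0.0 and the builds GRCm38 and mm10. The sources used here do not name an aligner, an annotation, the cell calling or any equalising of depth between libraries. Every barcode ends in 1 or 2, taken as the library. The members and gene lists were chosen with earlier results of these data known. All 9 members are named. From each list, up to 3 genes past the threshold are named, those with the largest change, at least 20 CPM (UMIs scaled to 1000000) and the same sign in both libraries; 1 gene is not reported here.

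Cells with at least 500 genes and under 20% mitochondrial UMIs were kept. Doublets were not called, so some cells of mixed class may be doublets; leaving out the 3% of cells with the most UMIs was tried. Each gene's UMIs were added up for every class of a library, and these sums were compared with edgeR 4.0.16 in R 4.3.3 (TMM, filterByExpr, robust quasi-likelihood, library as block, since sums of a library come from the same sample). DESeq2 1.42.0, no block, other filters and depths, thinning to 2000 UMIs and library totals were alternatives. The Gpha2, Krt4/Krt13 and surface RNA comparisons with Krt12-dominant cells were chosen after seeing the data. Intervals are exact (95%) and cover counting error only. The tests were tested on simulated data. These were drawn from the kind of model that edgeR assumes, with the same spread for all genes. They cannot show how the tests do where real sums depart from that model. Gene coordinates are from GENCODE M21 on GRCm38 and promoters from RefSeq.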

Additional observations from a re-analysis of the deposited data

Results flagged for a closer look

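Barcodes that the cell filter left out were not used in any comparison, and they still carried member RNA. In the 271 left-out barcodes of library 1 the 9 members summed to 3217 CPM (UMIs scaled to 1000000), against 2546 in kept cells, and in the 293 of library 2 to 4765 against 2722. They were singled out because this signal lies outside the compared cells. These barcodes had medians of 770 and 743 UMIs and median mitochondrial shares of 15.0% and 25.9%. Col17a1 alone stood at 1043 and 2135 CPM in them, and Cd151 at 8.80 and 38.4, the latter from 2 and 9 UMIs.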

How the results depend on the processing

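Over the 576 tested values of single members under another setting, 510 kept their direction and side of the threshold, 43 lost the call, 7 gained it and 16 changed sign. Without the library as a replicate block, members called higher and lower between Krt15-dominant and Krt12-dominant cells went from 2 and 5 to 1 and 3, those lower in intermediate cells from 1 to 0, those called with division from 2 and 2 to 0 and 0, those lower in Krt4/Krt13 cells from 8 to 5, and those lower with surface RNA from 6 to 0. DESeq2 gave 1 member higher in Krt15-dominant cells, 0 and 0 with division and 2 lower with surface RNA. Thinning with the classes set again on the thinned counts gave 1 higher in Krt15-dominant cells and 1 higher with division, and with the classes set before thinning (added after seeing the data) 1 and 0; only mitotic cells or only Krt4/Krt13 cells gave 1 higher, and only cells without mitotic RNA gave 1 higher and 3 lower. In intermediate cells 2 were lower with no filter on low counts, or without the 3% of cells with the most UMIs. With division, library totals in place of TMM gave 1 lower, and the keratin class in the fit gave 0 lower. Between keratin classes Itgb1 turned to 0.0047 with library totals, 0.0158 thinned, 0.0559 thinned with the classes set before, 0.092 in mitotic cells and 0.24 with Gpha2 cells only, Dst to −0.003 without mitotic RNA and −0.51 with Krt4/Krt13 cells only, and Lamb3 to −0.38 with the latter. In intermediate cells Itgb1 turned to 0.0094 at 3000 to 10000 UMIs and Lamb3 to −0.0009 thinned. With division Plec turned to 0.0051 with the class in the fit. In the interaction Col17a1 turned to 0.40, Dst to −0.12 and Cd151 to 0.15 when thinned, and Cd151 to 0.0201 with at least 1000 genes and 0.0675 at 3000 to 10000 UMIs. The Col17a1 shares of Krt15-dominant cells were 71.0% and 71.8% unthinned and 67.2% and 68.8% at 4000 UMIs, and of Krt12-dominant cells 96.1% and 95.0%, and 93.4% and 95.1%. All-gene counts fell too: DESeq2 called 984 higher and 793 lower between keratin classes, against 1885 and 1740, and 227 and 235 with division, against 939 and 1063. In the interaction 5 genes higher and 3 lower were called when thinned with the state set again, and 4 and 2 with no filter on low counts, against 0 and 0. Beyond fewer UMIs in thinned or divided cells, the cause was not tested. All-gene counts under the remaining settings are not given here. Member calls lost there cannot be told from calls lost among all genes. With 2 libraries, leaving 1 out leaves no residual spread, so single-library values have no test; 112 of 126 had the sign found over both libraries.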

Other observations

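Another laminin chain separated the keratin classes further than any member. Lamb1, the β1 chain found in other laminins, stood at 43.3 and 54.2 CPM in Krt12-dominant cells and 27.9 and 23.9 in intermediate cells. In Gpha2 cells it stood at 8.61 and 1.48 (12 and 3 UMIs), and in Krt4/Krt13 cells at 1.39 and 1.18 (1 UMI in each library). Krt15-dominant cells were lower than Krt12-dominant cells by −4.14 on the log2 scale (edgeR adjusted p = 5.39e-12). The tetraspanin Cd63, a gene of the limbal marker list, ran the other way, at 11.4 and 3.64 in Krt12-dominant cells and 140 and 178 in Gpha2 cells (4.37, edgeR adjusted p = 0.0033). Among the other plakins, epiplakin Eppk1 was higher in Krt15-dominant cells (1.60, edgeR adjusted p = 1.54e-12) and envoplakin Evpl lower (−0.53, edgeR adjusted p = 6.84e-05). Evpl stood at 38.0 and 52.2 in Gpha2 cells, 136 and 164 in Krt12-dominant cells and 173 and 269 in Krt4/Krt13 cells.

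Itga6 and Itgb1 were lower with more immediate early RNA among Krt12-dominant cells of library 1. Itga6 stood at 403 CPM in the 25% of cells with the least such RNA and 251 in the 25% with the most. Itgb1 stood at 247 and 194 in the same cells, and for both genes the intervals did not overlap. Cd151 stood at 78.8 and 60.4, with overlapping intervals. In library 2 the corresponding cells gave 320 and 285 for Itga6, 213 and 233 for Itgb1, and 92.6 and 84.8 for Cd151. Some other members went the other way in library 1. Col17a1 stood at 917 and 1074, Dst at 372 and 453 and Plec at 337 and 434, with intervals that did not overlap. In library 2 these genes stood at 1002 and 1026, 463 and 512, and 426 and 478. Median depth went from 5785 to 4247 UMIs in library 1 and from 5386 to 6624 in library 2. With 1 value per library and set of cells this was not tested.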
